A study of Mus musculus with 6 samples.

Results

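The genes described here are the triggering receptors expressed on myeloid cells (TREM) and their relatives, with the adaptors and first signalling enzymes behind them: Trem2, Trem1, Trem3, Treml2, Treml4, Tyrobp (DAP12), Hcst (DAP10), Syk, Plcg2 and Inpp5d (SHIP1). They were chosen by gene symbol, and all 10 had a row among the 41079 genes of the count table. The filter on low counts kept 14618 genes, 9 of the 10 among them, and Trem3 fell below it. RNA was sequenced from primary microglia of C57Bl/6N mice aged 1 to 3 days, with 3 control libraries and 3 libraries from optimized cultures, which the study describes as biological replicates. Cells of both groups grew in poly-L-ornithine-coated flasks. The flasks received 20% conditioned medium of L-929 cells, a source of M-CSF, on days 8, 13, 21 and 29. Per the methods of the study, microglia were shaken off repeatedly, between and after these doses, so early harvests had not received the later ones. The harvest that each library came from is not known here. Growth and seeding took place in medium with serum in both groups. Control cultures were then kept in serum-free DMEM/F12. Optimized cultures were kept in serum-free DMEM/F12 too, with human TGF-β1, IL-34 and CX3CL1, the treatment named in the labels, at 100 ng/mL each. The methods of the study add cholesterol, insulin-transferrin-selenium and wells coated with collagen IV, so the part of any single component cannot be told apart. Brains were pooled in each flask, the cells had been through weeks of mixed glial culture, and libraries of freshly isolated microglia were not analysed here.

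TREM proteins are cell surface receptors with a single immunoglobulin-like domain, and most of them have a short tail that cannot signal alone. TREM2 pairs in the membrane with DAP12, whose tyrosine-based activation motif (ITAM) recruits the kinase SYK once Src family kinases have phosphorylated it, and SYK in turn engages phospholipase C gamma 2 (PLCG2) and phosphoinositide 3-kinase, while the lipid phosphatase SHIP1 limits that signal. In microglia this route is known for lipid sensing, survival and phagocytosis, and human variants of TREM2, PLCG2 and INPP5D have been tied to the risk of Alzheimer's disease. TREM1 is best known from neutrophils and monocytes, where it amplifies inflammatory responses through the same adaptor.

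In the optimized cultures Trem2, Trem1, Treml2, Plcg2 and Inpp5d rose, Treml4 and Syk fell, and the adaptors Tyrobp and Hcst did not pass the test. Rises ran from 1.66-fold for Trem2 to 22.6-fold for Trem1, with Plcg2 at 1.68-fold, Inpp5d at 1.95-fold and Treml2 at 2.24-fold. Syk fell 1.76-fold and Treml4 5.83-fold. Of the 9 tested genes, 7 were called at an adjusted p under 0.05 (edgeR's quasi-likelihood test, 3 against 3 libraries), 5 higher and 2 lower. Over all 14618 tested genes, 29.8% were called, 14.7% higher and 15.2% lower. The libraries of both groups did not overlap in those same 7 genes, against 43.9% of all tested genes. At the study's volcano threshold, an unadjusted p under 0.01 with a change of 1.5 or more on the log2 scale, Trem1 passed upward and Treml4 downward, against 5.63% of all tested genes.

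**Figure D1:**
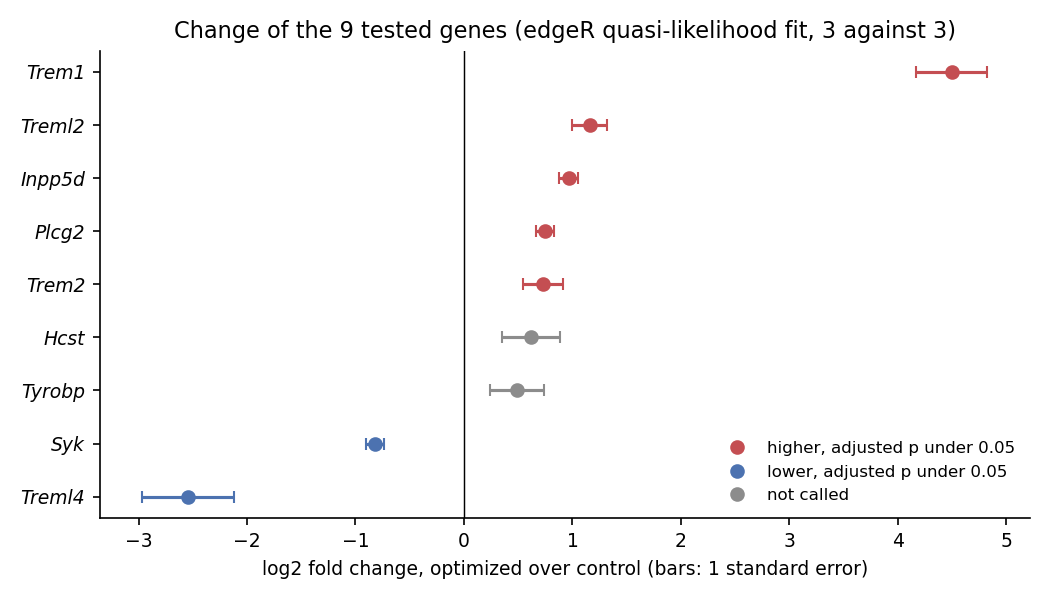
Log2 fold change of the 9 tested genes, optimized over control (horizontal axis), with bars of 1 standard error from edgeR's quasi-likelihood fit of 3 against 3 libraries. Trem1 lies farthest to the right at 4.50 and Treml4 farthest to the left at -2.54, while the bars of Hcst and Tyrobp are wide relative to their estimates.

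Totals ran from 20628148 to 27261839 counts per library, and the 10 genes took 0.200% to 0.218% of them in the control libraries and 0.234% to 0.312% in the optimized ones. Of 10 microglia and macrophage markers, 6 were higher and 2 lower, Csf1r by 0.39 and Aif1 by 0.45 on the log2 scale. Neuronal, astrocytic, oligodendrocytic and fibroblast markers together reached at most 46.6 CPM (counts scaled to a common library size) per list in any library, and B cell and T and NK cell markers at most 1.14 and 0.596 CPM. The neuronal marker Nefl was higher by 2.30 (SE 0.41, adjusted p = 0.00189), from 0.227 ± 0.056 to 1.14 ± 0.31 CPM (SD over 3 libraries). The neuronal markers Map2 (0.24, SE 0.27) and Rbfox3 (0.27, SE 0.38) were not called. The fibroblast list reached 46.6 CPM in optimized 3 alone, against 13.3 to 22.6 CPM in the other libraries. The part of these cell types in the values of the TREM and DAP12 genes was not tested. The 5 osteoclast markers, a cell type in which DAP12 also acts, summed to 6.69 to 8.97 CPM in the control and 2.51 to 3.66 CPM in the optimized libraries, with Calcr at 0 throughout. Only Dcstamp was called, lower at -2.91 (SE 0.29), from 5.38 ± 0.35 to 0.718 ± 0.292 CPM. Ctsk (0.15, SE 0.40) and Acp5 (0.10, SE 0.48) were not called. With another scaling, library size alone in place of TMM factors, the median log2 fold change of all genes moved by -0.129 and 32.3% of the calls were higher instead of 49.1%, and no TREM or DAP12 gene changed its direction or its call.

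On the scale of FPKM, which divides by gene length and allows genes to be compared, Tyrobp and Trem2 stood far above the rest in both groups. In the control libraries the order of mean FPKM was Tyrobp (1128), Trem2 (551.3), Inpp5d (50.8), Plcg2 (35.1), Syk (25.1), Hcst (9.80), Treml2 (0.947), Treml4 (0.795), Trem3 (0.108) and Trem1 (0.0465), and no neighbours in that order overlapped in their 3 libraries. In the optimized libraries the order was Tyrobp (1432), Trem2 (824.6), Inpp5d (90.2), Plcg2 (53.6), Hcst (13.5), Syk (12.9), Treml2 (1.92), Trem1 (0.956), Trem3 (0.274) and Treml4 (0.125). There Tyrobp and Trem2 overlapped, as did Hcst and Syk, and Trem3 and Treml4, so those neighbours were not separated beyond their spread. Trem1, last in the control order, stood above Treml4 in every optimized library, and Treml4 stood above Trem1 in every control library. Trem2 supplied between 99.6% and 99.7% of the summed FPKM of the 5 TREM genes in each library of both groups.

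**Figure D2:**
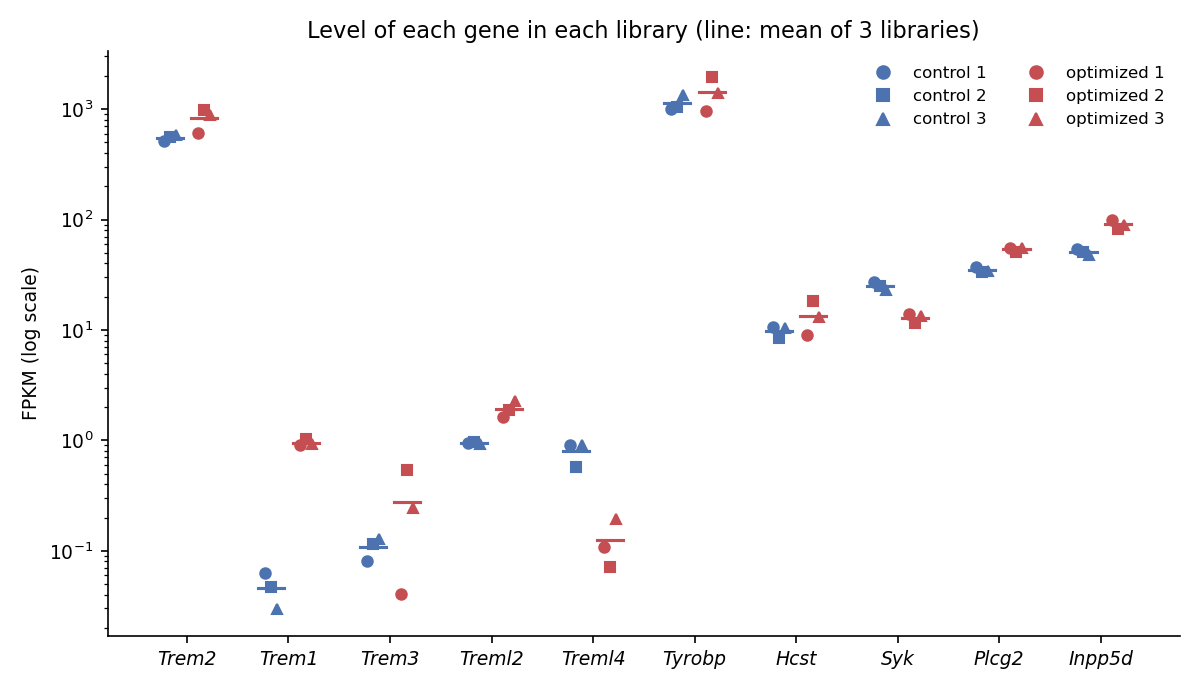
FPKM of the 10 genes in each library (vertical axis, log scale), with control libraries in blue, optimized libraries in red and a line at the mean of 3 libraries. Tyrobp and Trem2 lie near the top in both groups, and the low levels of Trem1 and Treml4 change places between the groups.

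The 5 TREM genes lie on the plus strand within 121.4 kb of chromosome 17 (GRCm39): Trem1 at chr17:48539784-48553952, Trem3 at chr17:48554788-48565876, Treml4 at chr17:48571323-48582388, Treml2 at chr17:48606526-48619561 and Trem2 at chr17:48653429-48661175. Direction and size of the change varied along this stretch, with the strongest rise and the strongest fall of the family in genes separated only by Trem3. The windows from 250 bases before to 50 bases from the start of the canonical transcript are shown for the receptor that rose most, for the one that fell and for the most abundant, 5′ to 3′ on the plus strand. Capitals mark the letters GAGGAA or, read from the other strand, TTCCTC, a core recognised by PU.1, the lineage factor of myeloid cells.
Trem1, chr17:48539534-48539833: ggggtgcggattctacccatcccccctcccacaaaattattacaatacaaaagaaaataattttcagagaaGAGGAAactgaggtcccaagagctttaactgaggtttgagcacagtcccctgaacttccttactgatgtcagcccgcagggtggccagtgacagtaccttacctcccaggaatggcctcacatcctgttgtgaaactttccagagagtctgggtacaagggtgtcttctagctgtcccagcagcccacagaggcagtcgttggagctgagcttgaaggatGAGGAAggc
Treml4, chr17:48571073-48571372: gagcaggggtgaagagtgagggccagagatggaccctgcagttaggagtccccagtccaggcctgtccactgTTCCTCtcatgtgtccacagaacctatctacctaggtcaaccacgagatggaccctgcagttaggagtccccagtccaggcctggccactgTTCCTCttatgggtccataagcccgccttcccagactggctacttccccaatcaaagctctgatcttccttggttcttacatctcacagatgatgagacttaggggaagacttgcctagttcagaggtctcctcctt
Trem2, chr17:48653179-48653478: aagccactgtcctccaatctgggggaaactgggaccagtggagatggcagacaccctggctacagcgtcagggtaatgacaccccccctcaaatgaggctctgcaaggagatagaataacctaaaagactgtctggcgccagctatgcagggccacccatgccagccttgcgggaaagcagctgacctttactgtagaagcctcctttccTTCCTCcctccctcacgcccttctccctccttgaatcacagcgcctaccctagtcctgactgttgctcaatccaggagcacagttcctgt
The Trem1 and Treml4 windows hold 2 such matches each and the Trem2 window holds 1, which begins 40 bases before the transcript start. Of the windows of all 10 genes, 7 hold a match, against 27.6% of 21734 promoters of the same length. The SMAD box CAGAC (or GTCTG) occurs in 3 of the 10 windows, those of Trem2, Trem1 and Treml4, against 48.4% of promoters. The letters TGANTCA, with any base at N, occur in the Trem2 window alone of the 10, against 7.15% of promoters. This spelling is looser than the AP-1 consensus, whose middle base is C or G, and the Trem2 match reads TGAATCA.

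**Figure D3:**
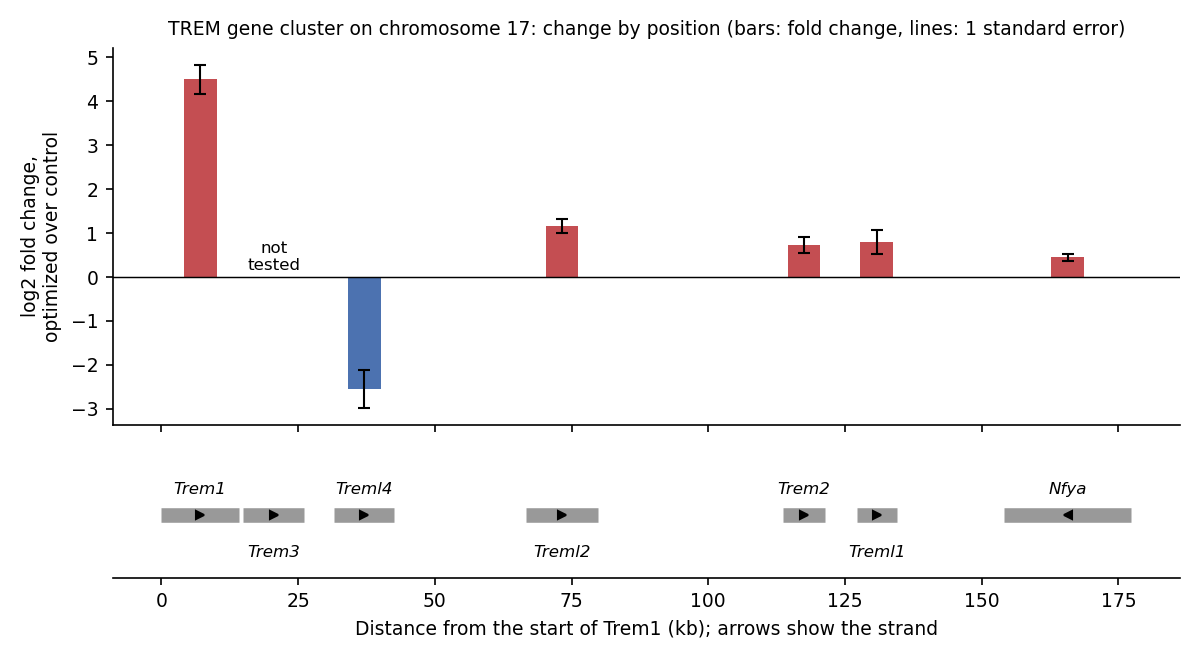
Log2 fold change, optimized over control, of the genes of the TREM cluster (upper panel, bars with lines of 1 standard error) by distance from the start of Trem1 in kb (lower panel, gene bodies with strand arrows). The rise of Trem1 and the fall of Treml4 lie within 42604 bases of each other, and Trem3 between them was not tested.

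Trem2, the lipid-binding receptor that defines this route in microglia, measured 575.4, 612.6 and 680.6 CPM in the control libraries and 727.6, 1288 and 1079 CPM in the optimized ones. The lowest optimized library lay just above the highest control library, and the other optimized libraries lay well above it. Control libraries averaged 622.9 ± 53.3 CPM and optimized libraries 1031 ± 283 CPM (SD over 3 libraries), and the log2 fold change was 0.73 (SE 0.18, adjusted p = 0.013 by edgeR's quasi-likelihood test). This call depended on single libraries, since the adjusted p in edgeR was 0.063 without control 1 and 0.067 without control 2. The estimates there moved little, to 0.67 (SE 0.22) and 0.71 (SE 0.23), with larger errors. Of 18 alternatives, 14 kept the call. On log2(FPKM + 1), limma gave 0.55 (SE 0.20, adjusted p = 0.14) for Trem2.

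Trem1 was close to absent from the control libraries, where 5, 4 and 3 reads were counted, and reached 72, 100 and 74 counts under the optimized conditions. Those are 0.219, 0.163 and 0.110 CPM against 3.41, 4.26 and 3.58 CPM, with no overlap. The log2 fold change was 4.50 (SE 0.33, adjusted p = 5.51e-06). With so few control counts, the summed counts scaled for library size gave a ratio of 23.5 with an exact 95% interval of 13.2 to 46.0, which covers counting error only. Trem1 nonetheless stayed a rare transcript, since Trem2 exceeded it 671.8- to 952.0-fold in FPKM in the optimized libraries and 8285- to 19510-fold in the control ones.

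Because Trem1 is also a neutrophil and monocyte gene, markers of those cells were summed. Of 8 neutrophil markers, Ly6g, S100a9, Mpo, Elane and Ngp had no count in any library, and the list summed to 0.219 to 0.329 CPM in the control and 1.55 to 3.11 CPM in the optimized libraries, mostly S100a8, which rose by 3.60 on the log2 scale (SE 0.50, adjusted p = 0.000389). The 5 monocyte markers, with Chil3 at 0 throughout, summed to 0.700 to 1.32 CPM in the control libraries and to 4.17, 0.596 and 0.532 CPM in the optimized ones, so only the first optimized library was raised. Trem1 was of like size in all 3 optimized libraries. The part of either cell type in the Trem1 counts was not tested, and in bulk RNA more cells that express a gene and more RNA per cell cannot be told apart.

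Trem3, a DAP12-coupled relative of Trem1, was counted 2, 3 and 4 times in control and 1, 16 and 6 times in optimized cultures. The groups overlapped, and 16 of the 23 optimized counts came from optimized 2. Without a filter on low counts, edgeR gave a log2 fold change of 1.46 (SE 0.92, adjusted p = 0.34), so it was not called. The ratio of summed counts was 2.93 (exact 95% interval 1.30 to 7.18), an interval for counting error that leaves out the spread between the libraries.

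Treml2, a receptor that is not known to pair with DAP12, measured 4.28, 4.41 and 4.54 CPM in the control and 8.05, 10.1 and 11.4 CPM in the optimized libraries. The control values lay close together and every optimized value was well above them, giving a log2 fold change of 1.16 (SE 0.16, adjusted p = 0.000385). Treml4, a DAP12-coupled receptor known from dendritic cells and macrophages, went the other way, from 42, 28 and 53 counts to 5, 4 and 9. In CPM these are 1.84, 1.14 and 1.94 against 0.237, 0.170 and 0.435, with no overlap, a log2 fold change of -2.54 (SE 0.43, adjusted p = 0.00131). The ratio of summed counts, control over optimized, was 5.97 (exact 95% interval 3.63 to 10.4, counting error only). Both other tested genes of the cluster rose as well, Treml1, a receptor best known from platelets, by 0.79 (SE 0.27, adjusted p = 0.0497) and Nfya, a transcription factor subunit on the opposite strand, by 0.45 (SE 0.07, adjusted p = 0.00132). Nfya shares 340 exonic bases with Oard1 on the other strand, and whether strand was used in counting is not given in the sources used here. The 4 platelet and megakaryocyte markers summed to 137 to 172 CPM in the control and 176 to 293 CPM in the optimized libraries, nearly all of it Pf4. Pf4 was called higher by 0.53 (SE 0.17). Itga2b averaged 0.596 CPM in the control and 0.620 CPM in the optimized libraries and was not called. Ppbp and Gp9 had too few counts to be tested. The part of these cells in the Treml1 value was not tested.

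The adaptor genes sit side by side on chromosome 7, Tyrobp at chr7:30113170-30117010 on the plus strand and Hcst at chr7:30117135-30119297 on the minus strand, with 124 bases between their 3′ ends and no shared exon. Their coding sequences differ in the motif that decides which enzyme they recruit. The coding strand of each motif is shown with its tyrosine codons in capitals, 5′ to 3′.
Tyrobp, ITAM, codons 92 to 106, chr7:30115095-30115100 and chr7:30116769-30116807: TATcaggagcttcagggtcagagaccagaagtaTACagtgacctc
Hcst, tyrosine motif, codons 72 to 75, chr7:30117246-30117257: TACatcaacatg
The Tyrobp stretch spans an exon junction and holds a pair of tyrosine codons, the form that binds both SH2 domains of SYK. The Hcst stretch holds a single tyrosine codon followed by the form that binds phosphoinositide 3-kinase.

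Tyrobp measured 558.4, 575.7 and 790.8 CPM in the control libraries and 575.3, 1269 and 861.3 CPM in the optimized ones. Optimized 1 fell among the control libraries and optimized 2 lay far above all others. The log2 fold change was 0.49 (SE 0.25, adjusted p = 0.18). Hcst had the same pattern at a far lower level, with 4.50, 3.63 and 4.69 CPM against 4.17, 9.20 and 6.24 CPM, a log2 fold change of 0.62 (SE 0.26, adjusted p = 0.114). Without optimized 1, both were called higher, Tyrobp by 0.73 (SE 0.16, adjusted p = 0.0020) and Hcst by 0.86 (SE 0.20, adjusted p = 0.0033). Without optimized 2, the values were 0.15 for Tyrobp and 0.27 for Hcst, so the estimates rest on which optimized library is included.

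The adaptors and Trem2 shared the order of the optimized libraries with the median of short genes. This order was not limited to short genes, since Ctsb, at 4.90 kb, ran at 14340, 21700 and 17640 CPM in optimized 1, 2 and 3. Around its group's mean log2 CPM, Tyrobp lay at -0.58, 0.57 and 0.01 in optimized 1, 2 and 3, Hcst at -0.57, 0.56 and 0.01, and Trem2 at -0.46, 0.36 and 0.10. Fcer1g, the Fc receptor gamma chain and the other common ITAM adaptor of microglia, lay at -0.42, 0.34 and 0.09 and was not called (log2 fold change -0.0003, SE 0.17, adjusted p = 0.999). The median of 1159 tested genes with a length under 1 kb, as implied by the FPKM values, lay at -0.160, 0.178 and 0.0233 in the same libraries, and that of 6660 genes over 4 kb at 0.0960, -0.0810 and -0.0172. Tyrobp, at 0.594 kb, and Hcst, at 0.457 kb, are of the short class, and Trem2 has 1.18 kb. Of the genes under 1 kb 19.3% were called, against 30.8% from 1 to 4 kb and 30.7% above. The part of this length trend in the spread of the adaptors was not tested; the trend was also removed by a spline, an alternative chosen after seeing the data. Trem2 then stood at 0.73 (SE 0.12, adjusted p = 0.00062), Tyrobp at 0.48 (SE 0.18, adjusted p = 0.063) and Hcst at 0.61 (SE 0.22, adjusted p = 0.051), all in edgeR.

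**Figure D4:**
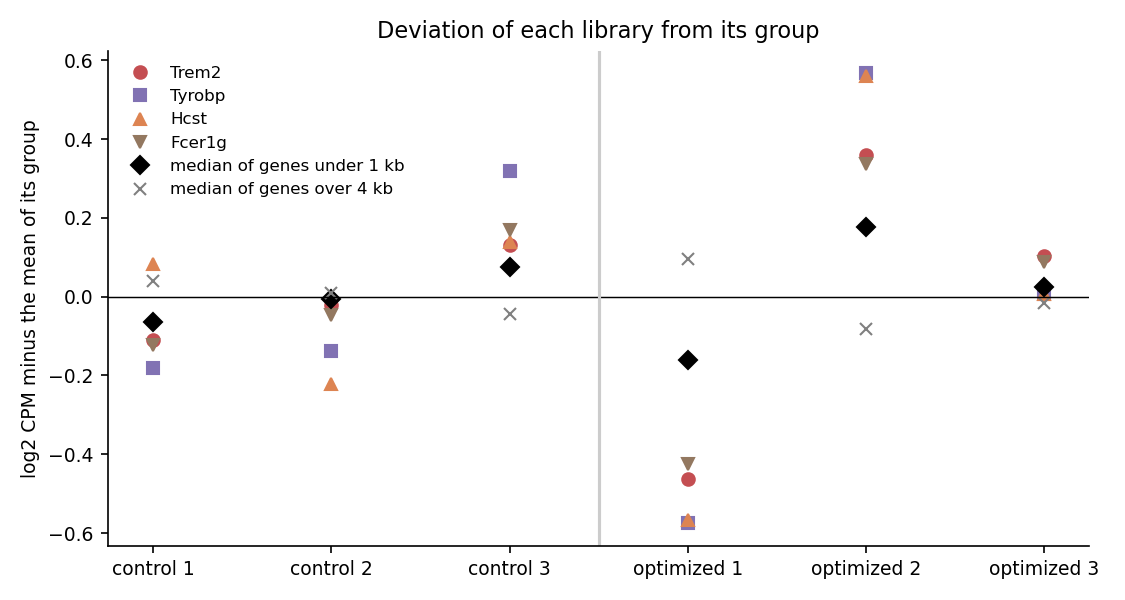
Log2 CPM minus the mean of its group (vertical axis) in each of the 6 libraries, for Trem2, Tyrobp, Hcst and Fcer1g and for the medians of genes under 1 kb and over 4 kb. In optimized 1 the 4 genes lie between -0.42 and -0.58, in optimized 2 between 0.34 and 0.57, and the short and long genes move in opposite directions there.

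Syk, the kinase that docks on the phosphorylated ITAM (chr13:52736696-52802828, plus strand), measured 316.7, 293.3 and 290.6 CPM in the control and 177.2, 159.7 and 173.5 CPM in the optimized libraries. The groups were far apart relative to their spread, and the log2 fold change was -0.82 (SE 0.08, adjusted p = 5.65e-05). Plcg2, the phospholipase downstream of SYK (chr8:118224988-118361881, plus strand), rose from 155.9, 137.9 and 153.0 CPM to 250, 247.9 and 253.1 CPM, by 0.75 on the log2 scale (SE 0.08, adjusted p = 8.77e-05). The optimized values of Plcg2 lay close together, with an SD of 2.62 around a mean of 250.3 CPM. Inpp5d, which encodes the phosphatase SHIP1 (chr1:87547989-87648230, plus strand), rose from 272.2, 250.8 and 251.5 CPM to 536.8, 484.8 and 491.1 CPM, by 0.97 (SE 0.09, adjusted p = 2.26e-05). These 3 genes of 4.46 to 12.6 kb had smaller errors than the adaptors, and their calls were unchanged under all 18 alternatives tried.

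Ratios of FPKM inside a library do not depend on scaling between libraries. The length trend described above need not cancel in ratios of genes of unlike length, such as Syk to Tyrobp or Trem2 to Csf1r. In all, 12 ratios were compared with the two-sided exact permutation test, which cannot go below p = 0.1 with 3 against 3 libraries (adjusted over the 12 ratios, 0.15). Syk to Inpp5d was 0.494, 0.496 and 0.490 in control 1, 2 and 3, against 0.140, 0.140 and 0.150 in optimized 1, 2 and 3, a 3.45-fold fall with hardly any spread inside a group (exact permutation p = 0.1). Syk to Tyrobp fell 2.39-fold, and Plcg2 to Inpp5d went from 0.691 ± 0.035 to 0.596 ± 0.033 (SD, n = 3 each), neither with overlap (exact permutation p = 0.1 for each). Trem1 to Trem2 rose 14.7-fold and Treml2 to Trem2 1.37-fold, again at the smallest p the design allows.

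Between receptor and adaptor, and between the adaptors, the ratios overlapped. Trem2 to Tyrobp was 0.517, 0.534 and 0.432 in control 1, 2 and 3, against 0.635, 0.509 and 0.628 in optimized 1, 2 and 3 (exact permutation p = 0.3). Tyrobp to Hcst was 95.3, 121.9 and 129.7 against 106.1 in each optimized library (exact permutation p = 0.4). Set against the general microglial genes, Trem2 to Csf1r rose 2.12-fold and Trem2 to Aif1 2.23-fold (exact permutation p = 0.1 for each), while Csf1r and Aif1 themselves were lower. Tyrobp to Csf1r rose 1.78-fold with overlap (exact permutation p = 0.2) and Tyrobp to Aif1 1.87-fold without (exact permutation p = 0.1).

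**Figure D5:**
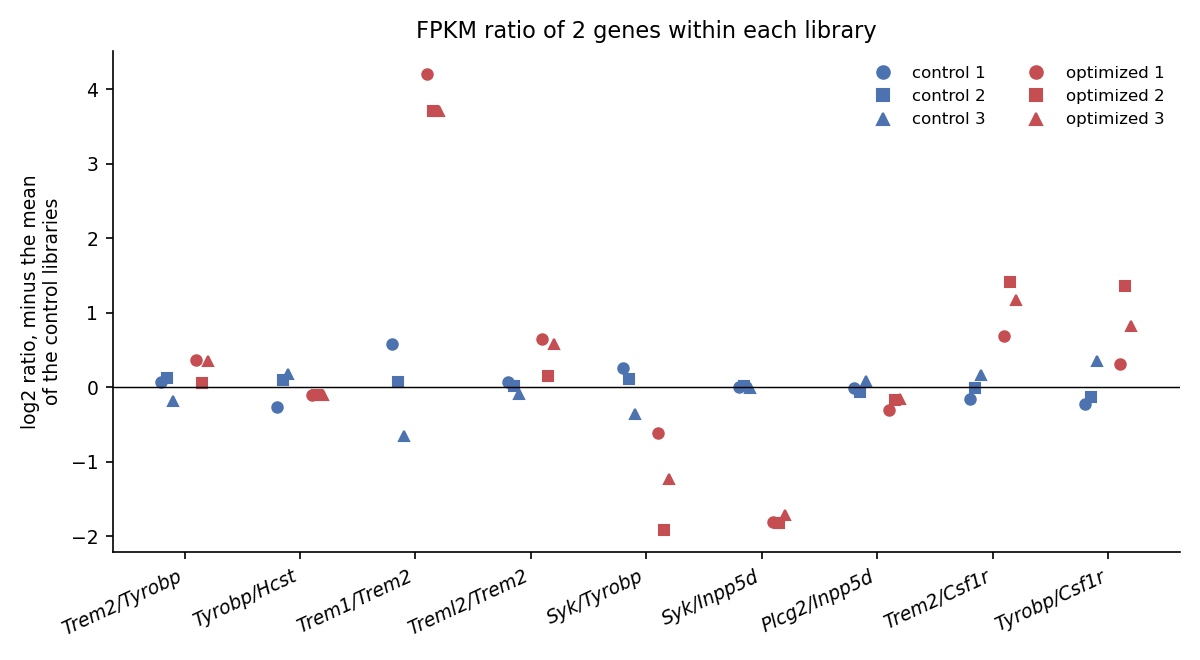
Log2 ratio of the FPKM of 2 genes within each library, minus the mean of the 3 control libraries (vertical axis), for 9 of the 12 ratios. The Syk to Inpp5d points of a group lie nearly on top of each other with a 3.45-fold fall between groups, while those of Trem2 to Tyrobp and of Tyrobp to Hcst overlap.

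The wider pathway was read through lists of 118 genes, of which 116 were in the table and 107 were tested, with 29 higher, 40 lower and 38 not called. The counts of each list stand beside a background of 14.7% of all tested genes called higher and 15.2% called lower. Their median log2 fold change was -0.0003, against 0.0079 over all tested genes, and their median size of change was 0.58 against 0.26. Treml6 and Trem5 were not analysed here.

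Among 10 tested receptors other than TREM that were listed as coupling to DAP12, 4 were higher and 4 lower. Siglech, a Siglec receptor of microglia, rose by 1.69 (SE 0.40) from 0.396 ± 0.150 to 1.28 ± 0.36 CPM (SD, n = 3 each), and Cd200r4 by 0.55 (SE 0.10). Cd300lb fell by 0.835 (SE 0.08). Cd300ld, on this list but known to pair with the Fc receptor gamma chain, fell by 1.87 (SE 0.10), from 106.6 ± 7.7 to 29.2 ± 2.5 CPM. Sirpb1b and Sirpb1c were higher by 1.69 and 1.86, and Pilrb1 and Pilrb2 were lower at -1.51 and -1.78, but each pair is nearly identical in sequence, so the share of reads between its members is uncertain. None of the 3 tested ITAM adaptors outside the TREM set, Fcer1g, Cd247 and Cd79b, was called. A list of 10 receptors drawn up as inhibitory, most of which carry the opposing motif (ITIM), had 7 lower and 1 higher, with a median of -1.10. Of its members, Cd200r1, among those lower, inhibits without an ITIM, and mouse Cd33 lacks the classical motif and can couple to DAP12. Pirb, the paired immunoglobulin-like receptor B, fell by 3.10 (SE 0.10), from 339.1 ± 2.6 to 39.7 ± 3.8 CPM, and Clec12a fell by 2.54 (SE 0.09). Cd33, a sialic acid receptor, rose by 1.45 (SE 0.11).

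Of 6 tested ligands, Apoe, an apolipoprotein that binds TREM2, was higher by 0.73 (SE 0.20, adjusted p = 0.0217), at 28360 to 35660 CPM in the control and 38570 to 66220 CPM in the optimized libraries. Lgals3, the lectin galectin-3, was lower at -1.04 (SE 0.14). In the group of 10 genes for shedding of TREM2 and cleavage of its stump, Adam10, a protease that releases the ectodomain, rose from 143.7 ± 7.9 to 275.5 ± 16.1 CPM (log2 fold change 0.94, SE 0.09). The gamma-secretase subunit Ncstn (0.66, SE 0.08) and Rhbdf2 (0.44, SE 0.08) were higher too. Aph1b (-0.48) and Aph1c (-0.51), alternative subunits of the same complex, were lower, and Adam17 was not called (-0.17, SE 0.08, adjusted p = 0.132).

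Src family and Tec family kinases, which act before and beside SYK, had 2 of 7 higher and 3 lower. Src (-1.66, SE 0.10) and Lyn (-0.25, SE 0.08) fell, as Syk did, and Fgr (1.45, SE 0.19) and Tec (0.53, SE 0.09) rose. Of 18 scaffold, phosphoinositide 3-kinase and phospholipase genes, 2 were higher and 7 lower. Vav3, a guanine nucleotide exchange factor, fell by 2.08 (SE 0.13), and Pik3ap1, an adaptor of phosphoinositide 3-kinase, fell by 1.00 (SE 0.08), while Plcg1, the close relative of Plcg2, rose by 1.04 (SE 0.13). The branch through CARD9, NFAT and calcium had 2 of 10 higher and 5 lower. Nfatc1 was higher by 0.58 (SE 0.09), and those lower included Itpr1 (-0.69, SE 0.17), Bcl10 (-0.54, SE 0.10) and Nfatc2 (-0.36, SE 0.11). The intracellular brakes other than Inpp5d had 2 of 12 higher and 5 lower. Dok2, an adaptor that dampens tyrosine kinase signals, fell by 2.67 (SE 0.13), and Ubash3b rose by 0.78 (SE 0.08), so the rise of Inpp5d was not shared by most of them.

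Genes known to depend on TREM2 in disease-associated microglia had 9 of 14 higher and 4 lower, with a median of 0.93. Spp1, which encodes osteopontin, rose by 1.74 (SE 0.15) from 7898 ± 976 to 26340 ± 3360 CPM, and Csf1 rose by 2.21 (SE 0.09). Lpl, lipoprotein lipase, fell by 1.55 (SE 0.11) and the chemokine Ccl6 by 2.22 (SE 0.17). The TREM2-independent genes of the same state had 2 of 6 higher and 2 lower, with a median of -0.10, the largest rise being that of the protease Ctsd at 1.63 (SE 0.19). In none of the lists with a call did the called genes move in a single direction, apart from the TREM locus, where both tested neighbours rose, and the difference between the lists was not tested.

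The genes whose log2 CPM followed Trem2 most closely over the 6 libraries, among 9837 tested genes that averaged at least 5 CPM, leaving out symbols of predicted genes, were Commd9 (Pearson's r = 0.9993), Aprt (0.9988) and Il11ra1 (0.998). For Tyrobp they were Mrpl36 (0.9956), Tom1 (0.9924) and Ccdc107 (0.9911). These values describe 6 libraries in 2 groups that share their scaling and their length trend.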

How the data were processed

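RNA of 6 microglia libraries, 3 control and 3 optimized, was sequenced with paired ends. Per the labels, the authors used HISAT2 for alignment to mm39 and featureCounts to obtain counts per gene. Versions, annotation and strand setting are not given in the sources used here. The deposited raw counts are not normalized, and the deposited FPKM values are counts divided by a gene constant and a library constant. Groups and replicate numbers came from the labels.

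The deposited counts went into edgeR 4.0.16 (R 4.3.3). After the filterByExpr filter and TMM scaling, the groups were compared by the quasi-likelihood test without further terms, with Benjamini-Hochberg adjustment over 14618 genes and a threshold of 0.05. The standard error is the log2 fold change divided by the square root of F. The common dispersion of 0.0164 is a coefficient of variation of 0.128 between libraries. Totals of 20628148 to 27261839 counts leave genes such as Trem1, Trem3 and Treml4 with few counts, and intervals of count ratios cover counting error only. Ratios of FPKM were compared with exact permutation tests. The steps were tested on simulated data.

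The genes, the lists around them and the cell type markers were chosen with earlier results of these data known. All 10 genes are named, and from each list the genes past the threshold or those not past it with the highest mean CPM may be named. The value of 1 listed gene is not reported here. Gene positions and sequences are from GENCODE M39 on GRCm39, where 35087 of the 41079 symbols were found, and the promoter share is over all protein-coding genes with a canonical transcript. Alternatives were DESeq2 1.42.0, scaling by relative log expression factors or by library size alone, other filters, a block for the replicate number, leaving out libraries in turn, a threshold of 0.01, limma 3.58.1 on log2(FPKM + 1) and log2(FPKM + 0.1), whose fold changes understate low genes, and ratios of raw counts. Removal of a gene length spline, alone or with the block, and leaving out replicate 1 of both groups were chosen after seeing the data.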

Additional observations from a re-analysis of the deposited data

How the results depend on the processing

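None of the 9 tested TREM and DAP12 genes changed direction under any alternative that could be run for it. Trem1 and Treml4 kept their call in all 16 alternatives, and Treml2, Syk, Plcg2 and Inpp5d in all 18. Trem2 was called in 14 of 18 and lost its call without control 1 and without control 2 (above) and with limma on log2(FPKM + 1) and log2(FPKM + 0.1), where its adjusted p was 0.14 and 0.13. At a threshold of 0.01 it was also lost, which left 4 genes higher and 2 lower. Over the libraries left out in turn, its log2 fold change ran from 0.52 to 0.93, and that of Tyrobp from 0.15 to 0.73. Leaving out replicate 1 of both groups, chosen after seeing the data, gave Tyrobp 0.64 (adjusted p = 0.015) and Hcst 0.89 (adjusted p = 0.011) in edgeR. The number of genes of the set called higher ran from 4 to 7 over the libraries left out in turn. It was 1 called lower where Treml4 did not pass the filter (at least 10 counts in every library, and a mean FPKM of at least 1). At the volcano threshold, 0 were higher and 0 lower with those 2 filters, which removed Trem1 and Treml4, and with limma on log2(FPKM + 1), which understates low genes. Over all genes, limma called 1307, 1312 and 1176 higher on log2(FPKM + 1), on log2(FPKM + 0.1) and with the mean FPKM minimum, against 2142 in edgeR, and 2638, 2664 and 2962 lower, against 2218, with the median log2 fold change moved by -0.133, -0.141 and -0.133.

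Same-numbered libraries correlated at 0.273, -0.012 and 0.185 in their deviations from the group means, and those of unlike number at -0.294 to 0.189. With 3 libraries a group, these values cannot decide whether the numbers pair the samples. The main fit has no term for the replicate number. With the replicate number as a block, 5 genes of the set were higher and 2 lower, over all genes 2401 and 2523, and no call of the 9 changed; with the block and the length spline together, chosen after seeing the data, Tyrobp was called at 0.46 (adjusted p = 0.028). All 84 alternative values of the 12 ratios kept their direction. With 3 libraries a group, counts of 1 to 16 for Trem3 and 4 to 9 for Treml4 in the optimized libraries limit what could be detected.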
